A study of Mus musculus with 8 samples.

Results

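Rnase1, Rnase4, Ang, Glycam1, Dcpp1, Dcpp2 and Dcpp3 encode small secreted proteins that are best known from glands, vessels and mucosal surfaces, and they were followed from neural stem cells to astrocytes derived from them. The 7 genes were chosen with results of the same comparison known: Rnase1 and Glycam1 because their signal appeared in astrocytes, Dcpp1 because its signal disappeared there, and the other 4 as their close relatives. Every probe whose platform gene symbol was one of the 7 was taken, which gave 7 probes of 5 genes among the 16449 genes named on the array. Rnase4 and Dcpp1 had 2 probes each, Rnase1, Ang and Glycam1 had 1 each, and no probe carried the symbol of Dcpp2 or Dcpp3. Because the choice used this comparison, the members' own differences are given as descriptions, without a test.

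The arrays were 8 one-colour Illumina mouse bead arrays. NS5 is a line of mouse neural stem cells that grows as a culture in the presence of growth factors, and 4 arrays held RNA of these cells. The other 4 held RNA of NS5-derived astrocytes, obtained after the growth factors were withdrawn and 5% fetal calf serum was given for 3 days. The labels call the 4 of each group biological replicates, all of 1 cell line, so the spread is that between its cultures. Serum and growth factor withdrawal were applied together and cannot be told apart.

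The RNase A superfamily consists of small, disulphide-bonded enzymes that cells secrete and that cleave RNA after pyrimidines. Its genes lie in a cluster, where many copies are expressed in single tissues, and a cytosolic inhibitor protein, Rnh1, binds these enzymes tightly when they enter cells. Glycam1 is a heavily O-glycosylated, mucin-like protein that carries sugars for L-selectin on the high endothelial venules of lymph nodes and is also a component of milk. The Dcpp genes encode the demilune cell and parotid proteins, which are secreted by salivary glands and are related to lectins of the jacalin type.

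Signals are intensities normalized between arrays, in scanner units with the background already subtracted, so that a signal around 0 or below means no measurable hybridisation. Each array held 24613 probes, with a median intensity of 28.0 to 33.0 before normalization. A background limit was estimated per array from the negative intensities and lay between 35.4 and 39.8 units, and 46.0% to 47.9% of the probes on an array exceeded it. The limit was applied to intensities before normalization, so a normalized signal close to it can lie on its other side. The cell labels were checked with marker genes. Of 8 tested astrocyte markers 7 were higher in astrocytes and 1, S100b, did not pass the test, while no array showed Slc1a2 above background. Gfap, the intermediate filament of astrocytes, went from -11.5 ± 6.01 (SD, n = 4) to 2320 ± 944 units (limma, adjusted p = 4.87e-10). Of 7 neural stem cell markers, 4 were lower and 2 higher in astrocytes and 1 was not called, so this list was mixed.

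Of the 7 member probes, 4 had groups that did not overlap and mean values at least 2-fold apart on the scale of the fit, namely those of Rnase1, Glycam1 and both probes of Dcpp1. Of the 10377 genes tested, 54.9% had groups that did not overlap and 18.5% were also 2-fold or more apart, and since the members were picked on this comparison nothing is read from their share. The other 3 probes, of Rnase4 and Ang, had overlapping groups. Rnase1, Glycam1, Dcpp1 and Ang were among the genes tested, whereas both probes of Rnase4 were too dim to pass the filter.

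**Figure D1:**
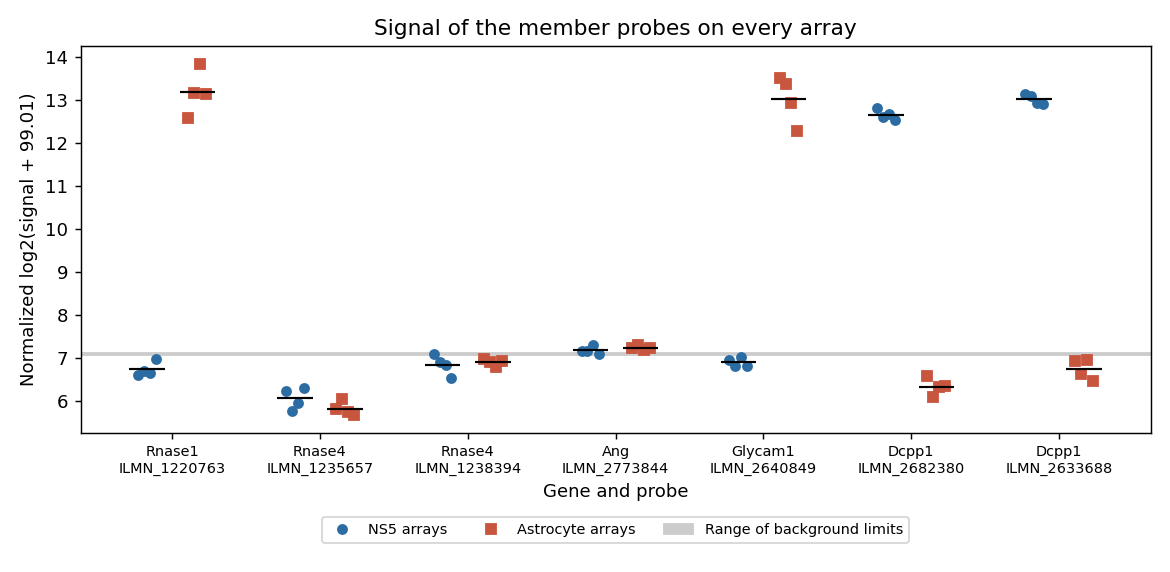
Normalized log2(signal + 99.01) of each member probe on the 4 NS5 arrays (circles) and the 4 astrocyte arrays (squares), with the mean of each group as a black line and the range of background limits as a grey band. The limits were set before normalization. Rnase1 and Glycam1 lie below the band in NS5 cells and far above it in astrocytes, the 2 probes of Dcpp1 do the reverse, Rnase4 stays at or below the band and Ang lies at or just above it in both groups.

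Rnase1 encodes the pancreatic-type ribonuclease, which in mammals is made by the exocrine pancreas and by vascular endothelium. Its probe (ILMN_1220763) gave signals of -1.27, 5.58, 1.59 and 26.6 units on the NS5 arrays. On the astrocyte arrays it gave 6047, 9106, 14614 and 8877 units. No NS5 array exceeded background and all 4 astrocyte arrays did, with astrocyte array 3 highest and array 1 lowest. The astrocyte mean was 9661 ± 3583 (SD, n = 4). On the scale of the fit, with 99.01 added to every signal, astrocytes were at least 67.6-fold above the background level in NS5 cells. The difference of mean log2 values was 6.45. Genes that were higher at 2-fold or more without overlap, and above background on no NS5 array, made up 1.68% of those tested.

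The promoter of Rnase1 is shown because its close relatives, described next, have no such signal. The window runs from 250 bases before to 50 after the start annotated by RefSeq (GRCm38.p6, chr14:51146718-51147017, minus strand), and capitals mark motif matches.
Rnase1 promoter: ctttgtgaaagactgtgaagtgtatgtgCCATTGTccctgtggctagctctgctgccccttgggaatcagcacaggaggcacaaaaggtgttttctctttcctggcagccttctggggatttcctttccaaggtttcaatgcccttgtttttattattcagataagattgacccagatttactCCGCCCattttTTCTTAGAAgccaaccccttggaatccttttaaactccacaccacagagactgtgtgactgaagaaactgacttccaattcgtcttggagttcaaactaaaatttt
From the 5′ end these are CCATTGT, a SOX-type match on the strand opposite to the gene, CCGCCC, a GC box on that opposite strand, and TTCTTAGAA, a match to the STAT-type motif at positions -56 to -48, with 0 at the start.

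Rnase4 is a ribonuclease that prefers to cut after uridine, and Ang, angiogenin, is a weak ribonuclease known for inducing vessel growth and for cutting tRNAs under stress. Neither showed a counterpart of the Rnase1 signal. Probe ILMN_1235657 of Rnase4 gave -24.0, -44.9, -37.2 and -20.3 units in NS5 cells and -43.1, -32.6, -45.7 and -48.0 in astrocytes. Its other probe, ILMN_1238394, which the intensity table assigns to another transcript of the gene, gave 37.6, 20.7, 15.5 and -6.08 units in NS5 cells. In astrocytes that probe gave 26.9, 21.0, 11.2 and 23.6 units. Neither Rnase4 probe exceeded background on any of the 8 arrays, so its level in both groups is known only to be below the limit.

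Ang (probe ILMN_2773844) gave 45.3, 44.5, 57.9 and 36.4 units in NS5 cells and 50.8, 59.2, 46.7 and 51.8 in astrocytes. It was above background on 3 of the 4 NS5 and all 4 astrocyte arrays, but all its values lay close to the limit and the groups overlapped. With a stricter limit, 1 NS5 and 2 astrocyte arrays remained above it. The difference of mean log2 values was 0.06, less than the pooled SD of 0.07 between replicates.

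Rnase4 and Ang share a start site in the RefSeq annotation, and their windows there were identical over all 300 bases (GRCm38.p6, chr14:51090827-51091126, plus strand). The shared sequence is shown because the background-level signal of Rnase4 and the near-background signal of Ang are listed under 1 promoter.
Rnase4 and Ang shared promoter: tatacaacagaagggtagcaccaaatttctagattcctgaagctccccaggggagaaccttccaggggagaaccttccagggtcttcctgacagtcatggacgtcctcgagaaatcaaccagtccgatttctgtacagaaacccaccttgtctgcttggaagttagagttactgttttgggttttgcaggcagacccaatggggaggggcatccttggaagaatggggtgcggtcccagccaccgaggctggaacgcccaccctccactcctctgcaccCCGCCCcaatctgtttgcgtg
The capitals mark CCGCCC, a GC box on the strand opposite to the genes, the single match among 5 motifs searched. A further window, at a start annotated for Rnase4 alone, held no match.

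Glycam1 (probe ILMN_2640849) gave 24.2, 12.9, 30.1 and 14.3 units on the NS5 arrays, none above background. In astrocytes it gave 11544, 10419, 7739.8 and 4834 units. The groups were far apart, and within the astrocytes array 1 was highest and array 4 lowest. The astrocyte mean was 8634 ± 2994 (SD, n = 4). On the scale of the fit, astrocytes were at least 60.3-fold above the background level in NS5 cells, with a difference of mean log2 values of 6.12.

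The promoter window of Glycam1 (GRCm38.p6, chr15:103565032-103565331, minus strand) is shown beside that of Rnase1 because both genes appeared in the same cells.
Glycam1 promoter: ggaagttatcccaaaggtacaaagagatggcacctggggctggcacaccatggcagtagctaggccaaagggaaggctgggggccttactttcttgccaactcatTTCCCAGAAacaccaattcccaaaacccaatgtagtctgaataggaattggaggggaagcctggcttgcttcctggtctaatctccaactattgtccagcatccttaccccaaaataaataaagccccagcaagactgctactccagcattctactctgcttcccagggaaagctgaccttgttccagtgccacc
Its 1 match, in capitals, was TTCCCAGAA, again of the STAT-type motif, at positions -145 to -137. This motif, TTCNNNGAA, reads the same on both strands and was found in 8.30% of 32851 RefSeq promoter windows of the same length. Among the member genes it was present in the windows of Rnase1 and Glycam1 and not in those of Rnase4, Ang or the Dcpp genes. A match describes letters in a window and not a bound factor, and with so few genes its share cannot be set against the background.

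Rnase1 and Glycam1 varied widely between astrocyte arrays. The highest of their 4 signals was 2.42 times the lowest for Rnase1 and 2.39 times for Glycam1, and the array that was lowest for Rnase1 was the highest for Glycam1. The SD of the log2 values was 0.52 for Rnase1 and 0.56 for Glycam1, against a median of 0.12 over 8978 genes above background on all 4 astrocyte arrays. Of those genes 98.9% had a smaller SD than Rnase1 and 99.2% a smaller one than Glycam1. The offset added before the log narrows the spread of dim genes, but among the 708 genes with a mean log2 above 12 the median SD was 0.11, and 99.3% had a smaller one than Glycam1. Of genes named below as nearest to Rnase1 in profile, the astrocyte SD was 0.42 for Hspb8, 0.33 for C3 and 0.09 for Mt3. For those nearest to Glycam1 it was 0.43 for Serpina3n, 0.28 for Clu and 0.25 for Cd59a. These genes were picked by likeness over all arrays, astrocyte replicates included, so their SDs are not independent of that choice. The spread of Rnase1 and Glycam1 between replicates was not used to choose them.

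**Figure D2:**
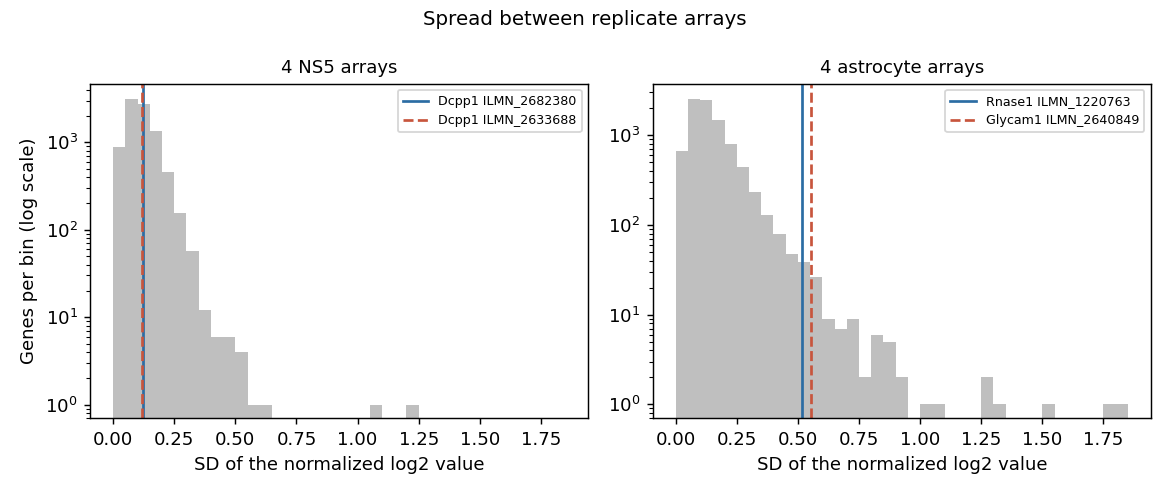
Histograms of the SD of normalized log2 values over the 4 NS5 arrays (left) and the 4 astrocyte arrays (right), for genes above background on all 4 arrays of the group, with the number of genes per bin on a log axis. The vertical lines put both Dcpp1 probes, at 0.12, in the bulk of the NS5 distribution, and Rnase1 and Glycam1, at 0.52 and 0.56, in the upper tail of the astrocyte distribution.

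Dcpp1 was the member lost in astrocytes. Its probe ILMN_2633688 gave 8941, 8589, 7630.0 and 7585 units on the NS5 arrays and 22.5, -0.24, 24.6 and -10.8 on the astrocyte arrays. Its probe ILMN_2682380 gave 7075, 6121, 6389.7 and 5785 units in NS5 cells. In astrocytes this probe gave -3.03, -31.1, -19.1 and -17.6 units. Both probes were above background on every NS5 array and on no astrocyte array. On the scale of the fit, the gene was at least 61.2-fold lower in astrocytes by the first probe, with a difference of mean log2 values of -6.27. By the second probe it was at least 47.5-fold lower, with -6.31. Genes that were lower at 2-fold or more without overlap, and above background on no astrocyte array, made up 1.10% of those tested.

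Both probes of Dcpp1 had a spread between the NS5 replicates somewhat above the median. The highest NS5 signal was 1.18 times the lowest by ILMN_2633688 and 1.22 times by ILMN_2682380. The SD between NS5 arrays was 0.12 for each probe, beside a median of 0.11 over 8794 genes above background on all 4 NS5 arrays. Of those genes 59.2% had a smaller SD than ILMN_2633688 and 60.8% a smaller one than ILMN_2682380. Among the 707 with a mean log2 above 12 the median was 0.09, and 67.9% and 69.4% had a smaller SD. The intensity table lists the 2 probes under different transcript accessions, which the platform annotation joins under Dcpp1.

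The level of Dcpp2 and Dcpp3 could not be read, since no probe is named for them. The promoter windows of the 3 Dcpp genes (GRCm38.p6, plus strand, chr17:23880626-23880925 for Dcpp1, chr17:23898472-23898771 for Dcpp2 and chr17:23917208-23917507 for Dcpp3) are shown because they are nearly the same sequence. In Dcpp1 the capitals mark motif matches, and in Dcpp2 and Dcpp3 they mark bases that differ from Dcpp1 in a pairwise alignment.
Dcpp1 promoter: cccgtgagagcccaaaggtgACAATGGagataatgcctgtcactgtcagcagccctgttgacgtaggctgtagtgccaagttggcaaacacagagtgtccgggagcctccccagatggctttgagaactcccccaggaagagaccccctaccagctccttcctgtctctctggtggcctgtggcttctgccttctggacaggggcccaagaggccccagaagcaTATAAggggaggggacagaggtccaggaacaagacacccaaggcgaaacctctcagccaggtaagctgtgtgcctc
Dcpp2 promoter: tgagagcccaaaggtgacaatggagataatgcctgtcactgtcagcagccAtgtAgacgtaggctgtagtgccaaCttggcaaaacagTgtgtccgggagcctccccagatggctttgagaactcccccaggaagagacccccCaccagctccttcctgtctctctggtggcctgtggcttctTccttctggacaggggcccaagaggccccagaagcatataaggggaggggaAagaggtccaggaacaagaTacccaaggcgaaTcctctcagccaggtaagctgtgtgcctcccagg
Dcpp3 promoter: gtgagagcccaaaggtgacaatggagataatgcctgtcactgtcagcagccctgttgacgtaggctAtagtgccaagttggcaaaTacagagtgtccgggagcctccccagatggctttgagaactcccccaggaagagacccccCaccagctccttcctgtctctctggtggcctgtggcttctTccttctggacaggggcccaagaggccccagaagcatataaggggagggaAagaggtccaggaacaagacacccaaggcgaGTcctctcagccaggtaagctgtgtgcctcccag
Over the aligned bases and the gap positions between them, Dcpp1 and Dcpp2 were 96.6% identical, with 9 substitutions. Dcpp1 and Dcpp3 were 97.3% identical, with 7 substitutions, and Dcpp2 and Dcpp3 97.0%, also with 7. In each pair 1 or 2 single-base gaps made up the rest. Whether the Dcpp1 probes also hybridise with transcripts of Dcpp2 and Dcpp3 was not tested, because probe sequences were not used here. The Dcpp1 values may therefore hold signal of its copies.

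All 3 Dcpp windows held ACAATGG, a SOX-type match, at -230 to -224 in Dcpp1, and the letters TATAA, the core promoter box of that type, at -26 to -22. The corresponding matches of Dcpp2 and Dcpp3 differ in position by a few bases. On either strand, the SOX-type motif was found in 3.66% and the core promoter box in 24.9% of the 32851 windows, and Rnase1 was the other member gene with the former. The GC box, GGGCGG, was in 35.7% of windows and in those of Rnase1 and of Rnase4 and Ang. The AP-1-type motif, TGANTCA, was in 7.81% of windows and in 0 of the 8 member windows. No matches overlapped one another. The motifs were chosen after the sequences and the expression values had been seen.

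**Figure D3:**
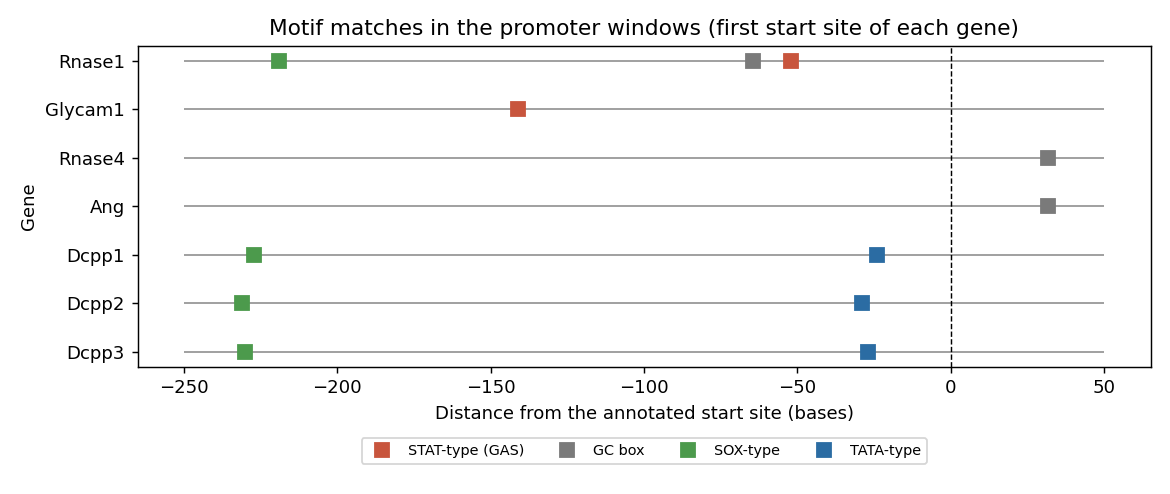
Motif matches (squares, coloured by motif) in the promoter window at the first annotated start site of each member gene, against the distance from that start in bases. STAT-type matches are in Rnase1 and Glycam1, and SOX-type matches far upstream are in Rnase1 and the 3 Dcpp genes. The Dcpp genes also share a TATA-type match close to the start, and GC boxes are in Rnase1, Rnase4 and Ang.

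The neighbours of the members were examined next, as the 3 protein-coding genes on either side of each member in the RefSeq order, a choice by position made after the members' values were known. On one side of Glycam1 the RefSeq table lists Mucl2 alone, the last protein-coding gene it holds for that chromosome. Around Rnase4, Ang and Rnase1 there were 8 such genes, 7 of them with a probe. Of these, 6 were not above background on any array. They included Rnase6, which lies next to Rnase1 on one side, with -30.1 ± 11.9 (SD, n = 4) units in NS5 cells and astrocyte signals between -48.5 and -23.0. Rnase2b, on the other side of Rnase1, had 5.33 ± 8.19 and 6.42 ± 10.6 units. The seventh, Rnase12, had 72.8 ± 3.09 and 73.4 ± 11.9 units and was not called (limma, adjusted p = 0.984). The 6 neighbours below background were too dim to be tested, so Rnase12 was the 1 neighbour with a test.

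Around Glycam1, 4 neighbours had a probe and 3 were tested, of which 2 were called higher. Ppp1r1a, an inhibitor of protein phosphatase 1 and the gene next to Glycam1, gave 419, 453, 313 and 336 units in NS5 cells and 4895, 5364, 4885 and 4169 in astrocytes. It rose without overlap, with a log2 fold change of 3.37 ± 0.11 (SE, limma, adjusted p = 7.35e-11). Pde1b, a calmodulin-dependent phosphodiesterase and the next gene along, rose from 70.7 ± 25.5 (SD, n = 4) to 568 ± 134 units, a log2 fold change of 1.97 ± 0.14 (adjusted p = 9.04e-08). Of all genes tested, 59.2% were called, 29.2% higher and 30.0% lower in astrocytes, and whether the loci differ in this respect was not tested. Nckap1l, an actin regulator of blood cells, was too dim for the test, with 5.11 ± 5.06 units in NS5 cells and 41.5 ± 6.45 in astrocytes, where 3 of 4 arrays were above background. Mucl2, on the other side of Glycam1, was at 55.1 ± 8.41 and 48.9 ± 7.90 units and was not called (adjusted p = 0.533).

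Around the Dcpp genes, 6 neighbours had a probe and 5 were not above background on any array. The sixth, the serine protease gene Prss21, exceeded it on 1 array of each group, with 28.2 ± 10.1 (SD, n = 4) and 24.0 ± 17.3 units. Sbp, which encodes the spermine-binding protein of prostate secretion and follows Dcpp3, had 20.8 ± 6.34 units in NS5 cells and 27.0 ± 8.18 in astrocytes. None of the 6 was bright enough to be tested.

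**Figure D4:**
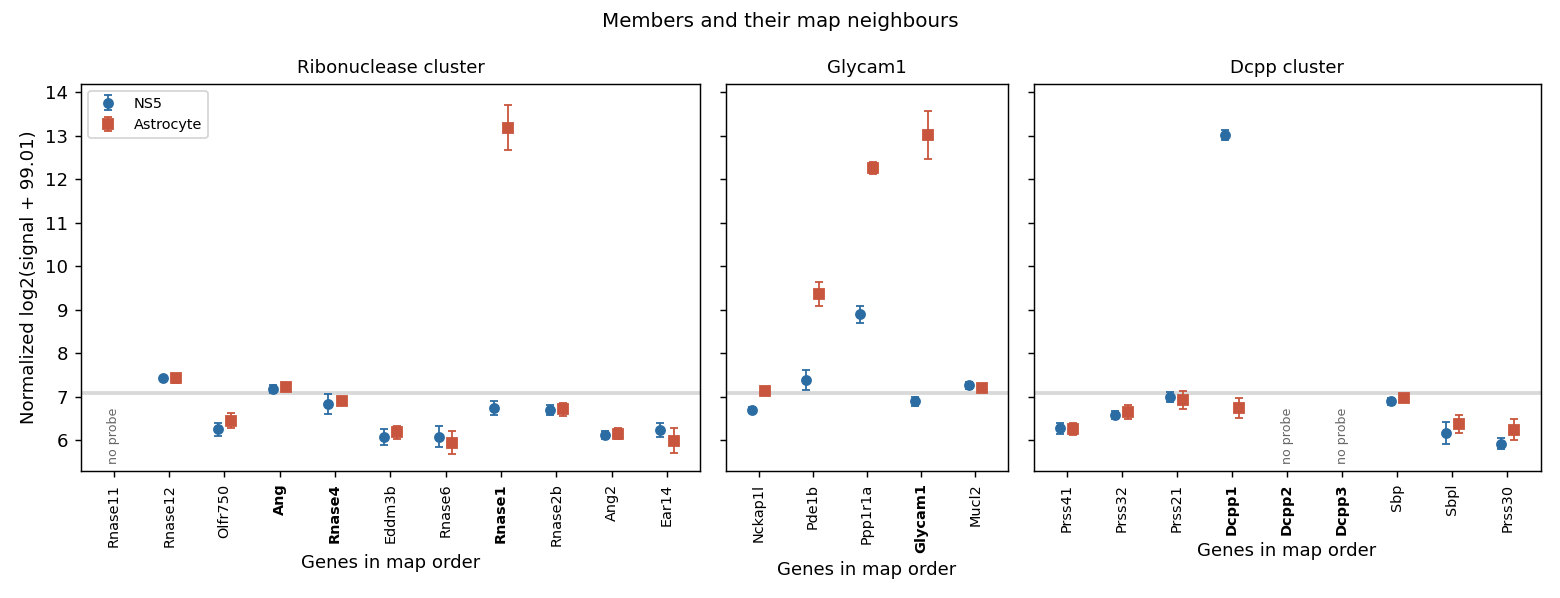
Mean normalized log2(signal + 99.01) with its SD over 4 arrays, for NS5 cells (circles) and astrocytes (squares), of the members (bold) and their neighbours in map order, with the range of background limits as a grey band. The limits were set before normalization. In the ribonuclease and Dcpp clusters the groups are far apart for Rnase1 and Dcpp1, while beside Glycam1 both Ppp1r1a and Pde1b are also higher in astrocytes.

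Lists of related genes were then set beside all genes measured, of which 37.8% of the 16449 named were above background on no array. Of 14 other genes of the RNase A superfamily on the array, 11 were not above background on any array, among them the eosinophil-type genes Ear1, Ear2, Ear3, Ear10 and Ear14 and the angiogenin copies Ang2 and Ang5. The other 3, Rnase10, Rnase12 and Rnase13, were above background on all 8 arrays, with group means between 72.8 and 132 units. Of them 0 were called (limma), beside 59.2% of all genes tested. The median log2 fold change of these 3 was -0.02, the same as the -0.02 over all genes tested.

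Of 6 tested genes whose products meet secreted ribonucleases, 3 rose, 2 fell and 1 was not called, beside 29.2% higher and 30.0% lower over all genes tested, and the median of their log2 fold changes was 0.05. Rnh1, the cytosolic ribonuclease inhibitor, rose from 4109 ± 156 (SD, n = 4) to 6485 ± 471 units, a log2 fold change of 0.64 ± 0.08 (SE, limma, adjusted p = 9.17e-06). Sdc4, the heparan sulphate proteoglycan syndecan 4, rose from 224 ± 33.8 to 1761 ± 326 units, by 2.52 ± 0.12 on the log2 scale (adjusted p = 2.01e-09). Ncl, nucleolin, which binds angiogenin at the surface of human cells, fell from 2275 ± 168 to 1009 ± 75.9 units, with a log2 fold change of -1.10 ± 0.08 (adjusted p = 1.27e-07).

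Ribonucleases outside the superfamily process or degrade RNA inside the cell for the most part. Of 30 tested, 21 fell, 3 rose and 6 were not called, beside 30.0% lower and 29.2% higher over all genes tested. Their median log2 fold change was -0.63 against -0.02 over all genes tested. Exosc8, a subunit of the RNA exosome, had -1.76 ± 0.08 (SE, limma, adjusted p = 1.56e-09). Rnaseh2b, a subunit of the nuclease that removes ribonucleotides from DNA, had -1.59 ± 0.08 (adjusted p = 4.79e-09), though its other probe was near background, and another exosome subunit, Exosc1, had -1.34 ± 0.12 (adjusted p = 6.08e-07). Endod1, which carries an endonuclease domain, went the other way, from 922 ± 188 (SD, n = 4) to 3704 ± 530 units, with 1.90 ± 0.13 (adjusted p = 8.24e-08).

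Of 29 other secreted proteins of salivary and lacrimal glands on the array, 18 stayed below background throughout, beside 37.8% of all named genes. Of 6 tested, 2 rose, 0 fell and 4 were not called, a share of 33.3% called beside 59.2% over all genes tested. Cst3, cystatin C, an inhibitor of cysteine proteases that many tissues secrete, rose from 5109 ± 208 (SD, n = 4) to 28016 ± 1025 units, a log2 fold change of 2.43 ± 0.07 (SE, limma, adjusted p = 2.39e-11). Tcn2, the vitamin B12 carrier transcobalamin 2, rose from 428 ± 124 to 843 ± 95.3 units, by 0.86 ± 0.14 on the log2 scale (adjusted p = 1.59e-04). Zg16, another secreted lectin of the jacalin type, was not above background on any array. Lyz2, the lysozyme gene of myeloid cells, did not pass the filter and was singled out after its values were seen: it gave -14.8 ± 9.71 units in NS5 cells, with no array above background, and 73.5 ± 10.2 in astrocytes, with all 4 above.

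Milk and mammary genes are the company in which Glycam1 is known from lactation. Of 22 on the array, 14 were not above background on any array, beside 37.8% of all named genes, including the casein genes Csn1s1, Csn1s2a, Csn1s2b and Csn2, the whey protein gene Wap and Lalba. Of 6 tested, 3 rose, 1 fell and 2 were not called, a share of 66.7% called beside 59.2% over all genes tested. Plin2, a lipid droplet coat protein, rose from 92.0 ± 27.5 (SD, n = 4) to 662 ± 165 units, by 1.98 ± 0.14 on the log2 scale (SE, limma, adjusted p = 1.08e-07). Folr1, a folate receptor, was at least 2.06-fold higher on the scale of the fit (adjusted p = 1.13e-07). It had 188 ± 49.9 units in astrocytes and none of the NS5 arrays above background. Mfge8, a secreted protein of milk fat globules, fell from 4371 ± 534 to 1358 ± 139 units, with -1.61 ± 0.10 (adjusted p = 2.84e-08). Prlr, the prolactin receptor, and the signal transducers Stat5a and Stat5b were picked from this list by hand. They were not above background on any array.

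Of 9 tested genes for other L-selectin ligands and the enzymes that make their sugars, 3 rose, 2 fell and 4 were not called, a share of 55.6% called, near the 59.2% over all genes tested, and their median log2 fold change was -0.03. The sialyltransferase gene St3gal6 rose from 165 ± 51.8 (SD, n = 4) to 1307 ± 259 units, by 2.41 ± 0.16 (SE) on the log2 scale (limma, adjusted p = 3.74e-08). Podxl, podocalyxin, a sialomucin, had 1.36 ± 0.11 (adjusted p = 2.66e-07), and Chst2, a sulphotransferase for L-selectin ligands, had 1.22 ± 0.07 (adjusted p = 1.63e-08). Emcn, the endothelial sialomucin endomucin, fell from 249 ± 86.3 to 31.2 ± 5.43 units, with 1 of 4 astrocyte arrays above background and -1.39 ± 0.15 (adjusted p = 3.24e-06). St3gal4, another sialyltransferase gene, was at least 1.48-fold lower on the scale of the fit and above background on no astrocyte array (adjusted p = 8.78e-07).

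Enzymes of mucin-type O-glycosylation, the modification that Glycam1 carries, had 5 genes higher, 3 lower and 2 not called of 10 tested. The share called was 80.0%, beside 59.2% over all genes tested, and the median log2 fold change of the 10 was 0.14. Galnt10, which starts such chains and whose other probe was at background, fell from 2143 ± 230 (SD, n = 4) to 760.5 ± 125 units, with -1.39 ± 0.11 (SE, limma, adjusted p = 2.50e-07). C1galt1c1, the chaperone of the enzyme that extends them, fell from 889 ± 62.0 to 439.6 ± 47.7 units, with -0.88 ± 0.09 (adjusted p = 1.57e-06). St3gal1, which caps them with sialic acid, was at least 1.73-fold higher on the scale of the fit (adjusted p = 1.78e-05). Its other probe, with overlapping groups, gave 30.7 ± 15.6 and 42.4 ± 9.59 units. Both 0.86 on the log2 scale by the first probe and 0.49 by the mean of its probes passed the test.

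**Figure D5:**
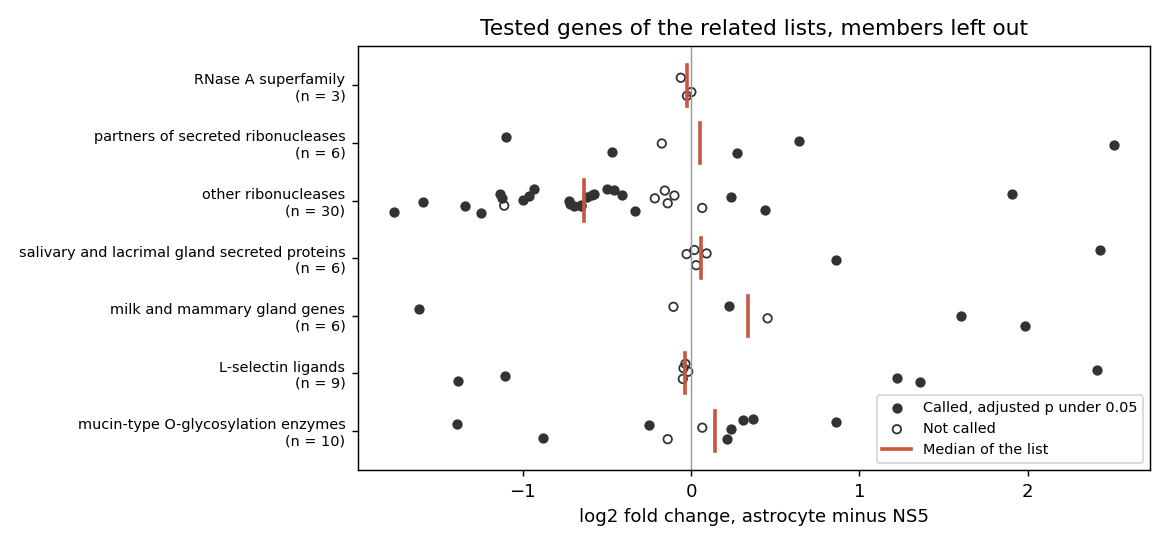
log2 fold change, astrocyte minus NS5, of each tested gene in 7 lists of related genes, with called genes as filled and other genes as open circles and the list median as a red line. The ribonucleases outside the superfamily lie mostly to the left of 0, and the other lists spread to both sides or hold few tested genes.

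Cells of other types that are known to make these proteins were looked for through marker lists. Of 12 endothelial markers, 5 were not above background on any array, namely Pecam1, Cdh5, Kdr, Tek and Tie1. The summed signal of the 12 was 633 to 863 units in NS5 cells and 245 to 303 in astrocytes, and Plvap and Emcn made up most of the NS5 sum. Of 4 tested, Plvap and Emcn were lower in astrocytes, Vwf was higher and Cldn5 was not called. Plvap fell from 318 ± 39.5 (SD, n = 4) to 99.4 ± 16.6 units (limma, adjusted p = 4.14e-07). Vwf, von Willebrand factor, rose to 74.0 ± 6.97 units, by 0.20 ± 0.08 (SE) on the log2 scale (adjusted p = 0.0467). Of 6 salivary markers, 3 stayed below background on every array, and the sum was -38.3 to -24.4 units in NS5 cells and 2.81 to 61.8 in astrocytes. Of these 6 markers, 1 was tested and not called. Over all named genes, 37.8% were above background on no array. The part of other cell types in the member signals was not tested further. Of 9 markers of mammary epithelium 7, and of 7 markers of macrophages and microglia all 7, were not above background on any array. Of 8 markers of pancreatic acinar cells 3 stayed below background on every array, and the other 5 did not include a called gene. Their sum was 231 to 300.2 units in NS5 cells and 265 to 307 in astrocytes.

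Among all genes tested, those with the profile nearest to each of the 3 strongly changing members were found by the root mean square difference of log2 values over the 8 arrays, each gene centred on its mean. Nearest to Rnase1 were Hspb8, a small heat shock protein, at 0.20, the complement component C3 at 0.21 and the metallothionein Mt3 at 0.28. Nearest to Glycam1 were the protease inhibitor Serpina3n at 0.27, the secreted chaperone Clu at 0.30 and Cd59a, an inhibitor of complement, at 0.36. Nearest to Dcpp1, by its probe ILMN_2633688, were 3 genes of cell division, namely Cenpa at 0.40, Prc1 at 0.43 and Plk1 at 0.44. These distances follow mainly the difference between the groups and describe likeness of profile alone.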

How the data were processed

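Gene expression was measured on 8 bead arrays, 4 of NS5 cells and 4 of astrocytes. The authors deposited a table of probe intensities without detection p-values, in which negative values show that a background had been subtracted, and a table of log2 values. Per the values, the deposited log2 table equals the intensities floored at 10, log2 transformed and quantile normalized, within 4.99e-09, and it served as an alternative. No source used here names the scanner software or the genome build. Probes were named by the platform annotation, updated through a RefSeq gene table (GRCm38.p6), or by accession for 687 probes. No table of protein sequences was used here.

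Intensities were raised by 99.01, so that the lowest became 16, log2 transformed and quantile normalized. The 12306 probes brighter on average than the median probe were kept, and the brightest per symbol was tested with limma 3.58.1 in R 4.3.3 over all 8 arrays (10377 genes), with Benjamini-Hochberg adjustment and calls at an adjusted p under 0.05. The array held 2942 probes without a name, and each of these that was kept counts as a gene among those tested. Fold changes are on the log2(signal + 99.01) scale, which understates those of dim genes. The background limit of an array is the 95% point of a normal distribution fitted to its negative intensities. A fold written "at least" is also on the log2(signal + 99.01) scale, so it understates the ratio of the signals themselves. Such a fold sets the mean of the bright group against, per array of the dim group, the higher of its value and the lowest value above the limit. The fit was tested on simulated data. List genes named with a test are the called ones with the 3 highest and 3 lowest log2 fold changes beyond 0.5. List genes named as above background on no array were picked outside this rule. Members and lists were chosen with earlier results of these data known. The labels do not say whether replicate numbers pair the samples, and the main fit used no pairing. The correlation of deviations was -0.05 to 0.15 over the 4 numbers, which cannot settle it. For numbers 3 and 4 the best partner bore the same number. The number of arrays limits the precision.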

Additional observations from a re-analysis of the deposited data

Results flagged for a closer look

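Among the 4 arrays of a group, 1 array stood apart from the other 3 for 5 of the non-member genes named, by the gap to its neighbour divided by the range of the group. In 76 groups examined, chance gives about 1 in 20 such cases, and none of them concerned a member probe. Plk1 on astrocyte array 1 had 37.2 units against 57.2 to 58.0 on the others (gap 0.964 of the range). Mt3 on astrocyte array 1 had 10100 units against 11329 to 11481 (gap 0.896), and St3gal1 on the same array 87.3 against 153 to 164 (gap 0.875). St3gal4 on NS5 array 1 had 80.0 units against 108 to 112 (gap 0.885), and Sdc4 on NS5 array 2 had 274 against 202 to 212 (gap 0.843). Astrocyte array 1 was also the lowest for Rnase1 and the highest for Glycam1, without standing apart by this measure.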

How the results depend on the processing

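The direction and the absence of overlap of the 4 strongly changing member probes held under all 11 settings tried for them, while their log2 difference depended on how low values were treated, by construction of the scale. In the deposited value table it was 9.49 for Rnase1, 8.74 for Glycam1 and -9.30 and -9.06 for Dcpp1 (ILMN_2682380 and ILMN_2633688). With values under 16 set to 16 and no offset it was 8.98, 8.62, -8.63 and -8.72. With 1 array left out it ran from 6.24 to 6.65 for Rnase1, from 5.96 to 6.40 for Glycam1 and from -6.39 to -6.21 over both Dcpp1 probes. The number of genes called was 6138, and 5677 to 6392 over 8 other settings and 5812 to 6185 with 1 array left out. With the replicate block it was 6074, and the block left the 48 calls in the lists at 48. The calls in the lists ran from 43 to 55. All 22 non-member genes named from the lists or as called neighbours kept their direction and call wherever they were tested. St3gal4 was tested in only 5 of the 8 fits with 1 array left out. The cell type markers Gfap, Plvap and Vwf and the genes nearest in profile were not among these 22. Without the filter, calls rose from 0 to 1 in the RNase A superfamily (Ear3, not above background on any array), from 2 to 8 in the salivary list and from 4 to 7 in the milk list. Rnase4, and to some degree Ang, are limited by signal at background.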
